A study of Mus musculus with 6 samples.

Results

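The transcripts described here encode 10 parts of the cyclic AMP pathway that holds the mouse oocyte in prophase I, namely the receptors *Gpr3* and *Gpr12*, the G protein subunit *Gnas*, the adenylyl cyclases *Adcy3* and *Adcy9*, the phosphodiesterase *Pde3a*, and the protein kinase A subunits *Prkaca*, *Prkacb*, *Prkar1a* and *Prkar2a*. They were chosen by symbol from the 25899 genes measured, and all 10 were found. The 6 libraries were prepared from oocytes of aged females (AF), 3 from non‐polysomal (NP) and 3 from polysomal (P) fractions, and 200 oocytes were used for each sample. All groups shared the same animals' strain and age, given in the labels as CD1 and 58 weeks, while the methods of the study name ICR and give the age in months. All oocytes also shared the same handling, that is, hormone priming of the females, collection in IBMX, 180 min of culture without it to nuclear envelope breakdown (NEBD), and cycloheximide at 0.1 mg/ml, which holds ribosomes on mRNA. Lysates were separated on a sucrose gradient into 10 fractions that were pooled into NP, with free RNA and single ribosomes, and P. Each library pools many oocytes, so fewer cells with a transcript and less of it in each cell cannot be told apart. Young oocytes were not analysed here, so the comparison made is of P with NP within AF oocytes.

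In the fully grown oocyte, the receptors GPR3 and GPR12 signal without an added ligand through the stimulatory G protein alpha subunit that *Gnas* encodes, and adenylyl cyclases then make cyclic AMP. Cyclic AMP frees the catalytic subunits of protein kinase A from its regulatory subunits, and the active kinase keeps CDK1 in check, so that the nucleus stays intact. Cyclic GMP from the follicle cells reaches the oocyte through gap junctions and inhibits the phosphodiesterase PDE3A, and once that inhibition ends PDE3A breaks down cyclic AMP and meiosis resumes. IBMX, used at collection, is itself an inhibitor of phosphodiesterases. The oocytes sampled were therefore past the step that this pathway controls, and what was measured is where its mRNAs lay in the gradient, not the activity of any enzyme.

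The fully grown oocyte makes almost no new RNA, and the translation of many stored mRNAs is switched through the end of the 3′ UTR, where a cytoplasmic polyadenylation element (CPE, searched as TTTTAT or TTTTAAT) near a polyadenylation signal (AATAAA or ATTAAA) directs the poly(A) tail. The last 100 bases of the 3′ UTR were searched on the transcript strand of GENCODE M21 (GRCm38), with overlapping matches kept. A CPE was present in 2 of the 10 members, against 17.9% of the windows of 19367 genes, and a signal in 8 of 10, against 78.6%. The members with a CPE were *Adcy3*, where it began 26 bases before the end and overlapped the signal at 22, and *Prkacb*, where it began at 49 and the signal at 25. *Gnas* held 6 signals in its window, and *Adcy9* and *Pde3a* held none at the annotated end. The 4 sites printed are those of the members with a CPE and of *Prkaca* and *Prkar1a*, the members with the lowest and the highest ratio of P over NP. Capitals mark the CPE and the signal, and a match in a window says nothing of whether it is used.
Adcy3, chr12:4213489-4213518, plus strand: aacaggactgTTTTATTAAAagctttactc
Prkacb, chr3:146729593-146729622, minus strand: TTTTAATtcatcaataaccgcaaaATTAAA
Prkaca, chr8:83996408-83996437, plus strand: aaaactattaccAATAAAgttttgttttaa
Prkar1a, chr11:109669615-109669644, plus strand: ggtaggtcacagAATAAAaaagatgaaata

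The deposited values are FPKM, which scale the fragments of a gene to its exon length and to the mapped reads of the library, and the reads behind them were recovered from the steps between low values. Depth recovered in this way spanned 110-fold, from 163822 reads in P replicate 1 to 18096676 in NP replicate 2, with 1141531 to 12131030 in the others. P replicate 1 therefore stands apart by its depth, and a transcript of 2 kb listed at 0 there could lie at up to 9.16 FPKM, against 0.0829 to 1.31 in the other 5 libraries, taking 3 reads as the limit. The reads were amplified and need not be separate molecules, so the limits and intervals given hold for counting error alone. Oocyte markers identified the cells, with 12 of 12 measured and summed FPKM of 12988 to 16765 in NP and 5585 to 16799 in P, led by *Gdf9* and *Zp3*. Of 14 granulosa and cumulus markers, 7 were listed at 0 in every library (*Amh*, *Amhr2*, *Fshr*, *Foxl2*, *Inhba*, *Has2* and *Hsd3b1*), and the list summed to 11.2 to 131 FPKM in NP against 1.54 to 16.5 in P. *Cyp19a1* (7.15, 22.5 and 104 FPKM in NP against 15.4, 0 and 0 in P) and *Nr5a2* (3.37, 6.32 and 26.9 in NP and 0, 5.71 and 1.18 in P) led that list. Its higher level in NP ran in the direction of most member ratios, and its part in them was not tested. Of the 6 blood and immune markers listed in the table, 5 were at 0 in every library, and *Cd68* was at 0.643 FPKM in NP replicate 1 alone.

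Between the fractions, no member passed the threshold of an adjusted p of 0.1 in limma without the replicate number as a block. Both fractions were pooled from each sample, though no source says in words that equal numbers mark one sample, and with the number as a block 1 member (*Prkaca*, adjusted p = 0.0979) and 668 genes passed. The fitted ratio of P over NP was below 0 for 8 of the 9 members tested, as it was for 8478 of all 10578 genes tested. *Prkaca*, a catalytic subunit, had the lowest ratio, at -3.23 on the log2(FPKM + 1) scale, and *Prkar1a*, a regulatory subunit, had the only ratio above 0, at 0.79. A single member, *Prkaca*, had an unadjusted limma p under 0.05. Of all 10578 genes tested, 192 (1.82%) passed, 190 of them lower in P (1.8%) and 2 higher (0.0189%), and 15.8% had an unadjusted p under 0.05. This split rested on the scaling, since 3 genes passed after median-of-ratios rescaling (1 lower in P), 4 after quantile normalization (2 lower) and 7 after rescaling to a common FPKM sum (5 lower). The count also moved with the scaling kept. It was 1 with no filter, 15 with no trend, and 4, 12 and 1 without NP replicates 1, 2 and 3. Without P replicates 1, 2 and 3 it was 240, 156 and 331. The median ratio of all genes was -1.03 as deposited, and it was -0.38 after median-of-ratios rescaling, 0.0027 after quantile normalization and -0.42 after rescaling to a common FPKM sum. The members' median was -0.78, and 3 members (*Gpr3*, *Pde3a* and *Prkaca*) lay below the median of all genes and 6 above it. Signs of single members changed under these scalings, *Gnas* being above 0 in all 3, *Adcy3* in 2 of the 2 in which it was tested, and *Adcy9* and *Prkar2a* after quantile normalization alone. No source says that the replicates came from separate females, so p-values measure the spread between these libraries, and an exact permutation test of 3 against 3 cannot go below p = 0.1.

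Of the 60 values of the members, 13 were listed at 0. In NP, 9 members were above 0 in every library, while 5, 9 and 6 were above 0 in P replicates 1, 2 and 3. The summed FPKM of the members was 167, 249 and 146 in NP and 120, 122 and 21.8 in P. The low sum of P replicate 3 came with low values of *Adcy9* and *Pde3a*, the members with the highest medians in P, at a depth that was the highest of the P libraries. In that library 6908 genes of the whole table were above 0 from 1549317 reads, against 9557 from 1141531 reads in P replicate 2 and 6247 from 163822 in P replicate 1, so P replicate 3 stood apart as a whole, and the part of this in the values of *Adcy9* and *Pde3a* was not tested.

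**Figure D1:**
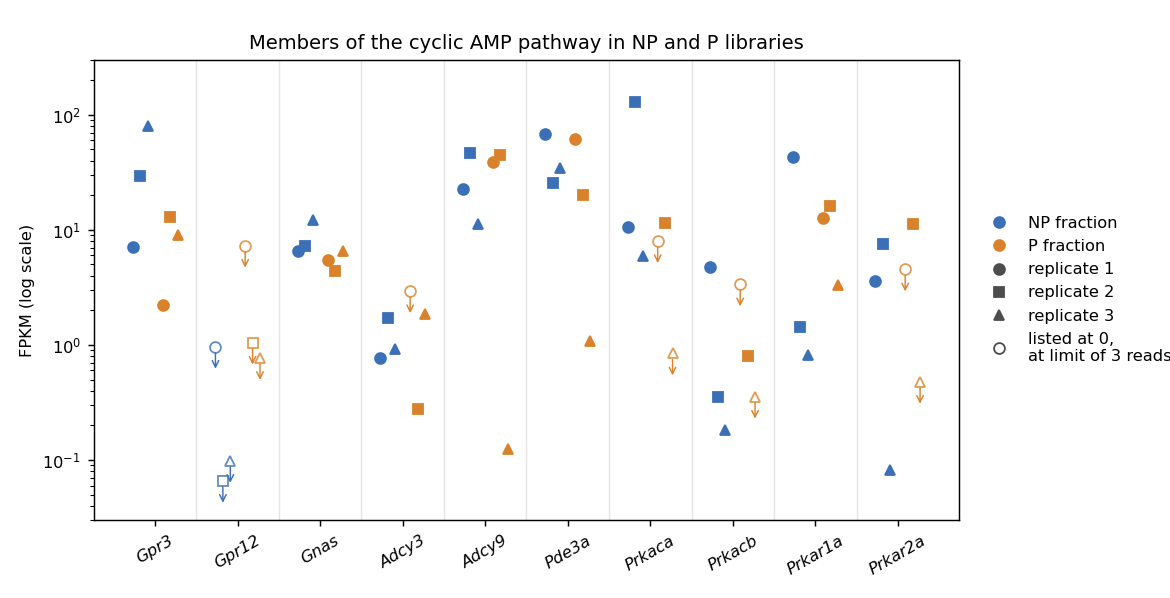
FPKM (log scale) of the 10 members in each library, with NP in blue, P in orange and a marker shape for each replicate number. Open symbols with arrows stand at the limit of 3 reads for libraries listed at 0, which holds for all 6 values of *Gpr12*, and only *Gnas* has every P value below every NP value.

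*Gpr3*, the receptor that keeps cyclic AMP high in the mouse oocyte (chr4:133209340-133212536, minus strand), was at 7.09, 29.3 and 80.4 FPKM in NP replicates 1 to 3 and at 2.23, 12.8 and 8.97 in P, a mean of 38.9 ± 37.6 against 8.01 ± 5.36 (SD, n = 3). NP replicates 2 and 3 stood above every P library, while NP replicate 1 lay below 2 of them, so the groups overlapped. The reads behind these values were 24, 1450 and 2667 in NP and 1, 40 and 38 in P. The P library was lower than the NP library of the same number in each case, by 2.29-fold (exact 95% counting interval 1.67 to 3.21) for number 2 and 8.96-fold (6.51 to 12.7) for number 3. For number 1 the ratio of NP over P was 3.18, and with a single P read its interval ran from 0.518 to 131. In limma the ratio was -1.83 ± 1.18 (SE; adjusted p = 0.439), 0.80 below the median of all genes. Without NP replicate 3 it was -1.04, which was 0.30 above the median of all genes in that fit.

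At its start, *Gpr3* shares 204 exon bases, 7.46% of its exons, with *Cd164l2* on the opposite strand. *Cd164l2* was at 538, 551 and 485 FPKM in NP against 73.6, 48.1 and 117 in P. Its values were not whole reads at the annotated length in most libraries, so its reads are approximate. If they were even along its exons, the shared bases would hold 136, 2033 and 1201 of them in NP and 2.46, 11.2 and 37.1 in P. In NP replicates 1 and 2 and P replicate 1 these numbers exceed all reads listed for *Gpr3*, and in NP replicate 3 and P replicates 2 and 3 they do not. The methods of the study name amplified cDNA and a DNA library kit, with no step that keeps the strand. The strand setting of the counting is not given in the sources used here. The part of *Cd164l2* in the values of *Gpr3* was not tested.

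*Gpr12*, a closely related receptor of the same signal (chr5:146582151-146585239, minus strand), was listed at 0 in all 6 libraries and was not tested. At the annotated length, 3 reads would be worth 0.965, 0.0660 and 0.0984 FPKM in NP against 7.29, 1.05 and 0.771 in P. NP replicate 2, the deepest library, thus sets the tightest limit, in a library where *Gpr3* was at 29.3 FPKM. *Gpr6*, the other receptor of this small family, was also at 0 in every library.

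*Gnas*, which encodes the stimulatory alpha subunit (chr2:174284320-174346744, plus strand), was at 6.57, 7.23 and 12.2 FPKM in NP and at 5.46, 4.39 and 6.52 in P. Every P library was below every NP library, by a narrow margin between P replicate 3 and NP replicate 1. All P below all NP was the case for 23.2% of the genes tested and the reverse for 0.633%. *Gnas* also had the narrowest range of the 5 members above 0 in every library, 1.86-fold in NP and 1.49-fold in P. Its fitted ratio in limma was -0.55 ± 1.17 (SE; adjusted p = 0.822), 0.48 above the median of all genes, and it was 0.30, 0.83 and 0.26 under the median-of-ratios, quantile and common FPKM sum alternatives.

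The exons of *Gnas* share 1469 bases, 13.1% of their length, with *Gm20721* on the opposite strand (chr2:174330319-174346712). *Gm20721* was at 46.3, 53.2 and 90.8 FPKM in NP against 41.1, 32.5 and 49.1 in P. In reads, *Gm20721* had 85, 1430 and 1634 in NP and 10, 55 and 113 in P, where *Gnas* had 91, 1463 and 1655 and then 10, 56 and 113. The reads listed for *Gm20721* thus amounted to 93.4% to 98.7% of those listed for *Gnas* in NP and 98.2% to 100% in P. Since no library step that keeps the strand is named in the methods of the study, reads of *Gnas* and of *Gm20721* cannot be told apart. A further 988 exon bases are shared with the antisense gene *Nespas*, which had 7 reads in NP replicate 1 and was at 0 in the other 5 libraries.

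**Figure D2:**
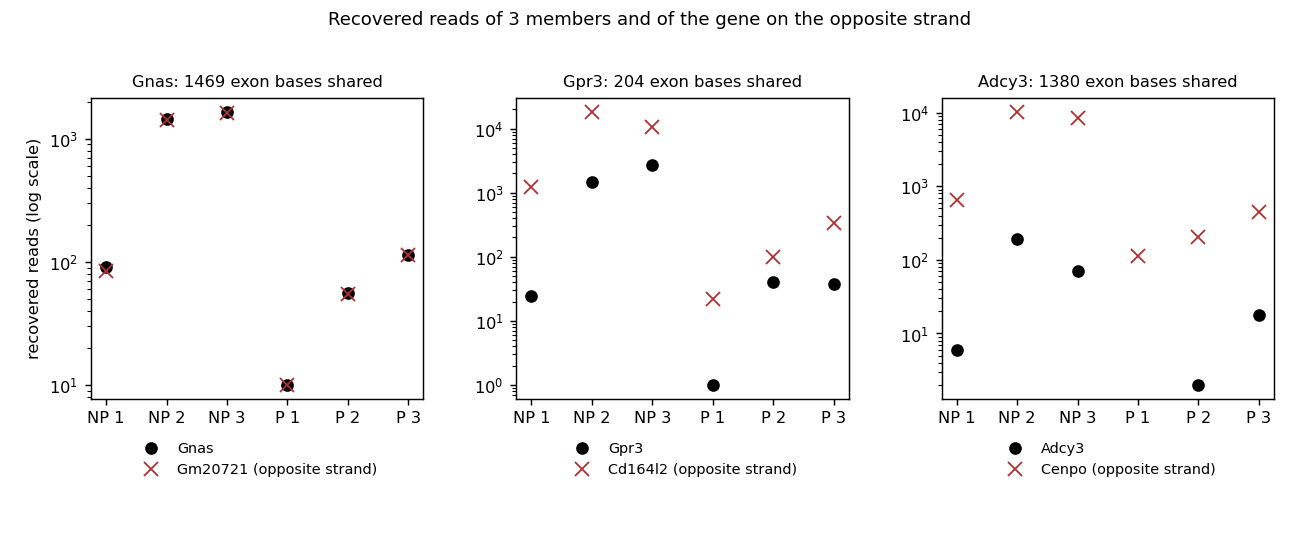
Recovered reads (log scale) in each library for *Gnas*, *Gpr3* and *Adcy3* (black circles) and for the gene that shares exon bases with each on the opposite strand (red crosses). The crosses of *Gm20721* fall on the circles of *Gnas*, from 10 reads in P replicate 1 to about 1655, while *Cd164l2* and *Cenpo* lie above *Gpr3* and *Adcy3* in every library. *Adcy3* has no circle in P replicate 1, where it was listed at 0.

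*Adcy3*, an adenylyl cyclase with a known part in the arrest of rodent oocytes (chr12:4133103-4213525, plus strand), was at 0.776, 1.73 and 0.924 FPKM in NP and at 0, 0.281 and 1.86 in P. P replicate 3 was the highest of the 6 and P replicate 2 the lowest above 0, so the groups overlapped. The value at 0 rested on a library where 3 reads would be worth 2.93 FPKM, more than any value measured, so a difference was not detectable there. For number 2 the ratio of P over NP was 0.163 (exact 95% counting interval 0.0196 to 0.595, 2 reads against 195), and for number 3 it was 2.01 (1.13 to 3.42, 18 reads against 70), in the opposite direction. The limma ratio was -0.45 ± 0.86 (SE; adjusted p = 0.800), 0.58 above the median of all genes. It was -0.14 without P replicate 1, -0.89 without P replicate 3 and -1.49 with a pseudocount of 0.1.

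Of the *Adcy3* exons, 1380 bases (22.1%) lie opposite exons of *Cenpo*, a centromere protein gene at 71.4, 77.9 and 97.1 FPKM in NP against 94.1, 24.6 and 39.5 in P. Spread evenly, *Cenpo* reads would place 122, 1945 and 1625 reads in the shared bases in NP and 21.3, 38.8 and 84.4 in P, against 6, 195 and 70 and then 0, 2 and 18 reads in all of *Adcy3*. The reads listed for *Adcy3* were fewer in every library. The part of *Cenpo* in the values and ratios of *Adcy3* was not tested.

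*Adcy9*, a second adenylyl cyclase (chr16:4287529-4420498, minus strand), was above *Adcy3* in 5 of the 6 libraries, at 22.7, 46.3 and 11.3 FPKM in NP against 38.8, 45.0 and 0.124 in P. P replicates 1 and 2 lay within the range of NP, while P replicate 3 held a single read against 33 and 267 in the others. With number 1 the P library was 1.71-fold above the NP library (exact 95% counting interval 1.13 to 2.51) and with number 2 the ratio was 0.972 (0.856 to 1.1). With number 3 the ratio of NP over P was 91.2 (16.3 to 3607), from 714 reads against 1. In limma the ratio was -0.92 ± 1.3 (SE; adjusted p = 0.716), although the plain means were 26.8 ± 17.8 in NP and 28 ± 24.3 in P (SD, n = 3). Without P replicate 3 the ratio was 0.83, so that library set its sign.

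Within the family of 10 adenylyl cyclases, *Adcy9* made up 18.9%, 50.9% and 36.7% of the summed FPKM in NP against 79.2%, 80.1% and 0.466% in P. It ranked first in NP replicate 2 and P replicates 1 and 2. *Adcy6* led in NP replicate 1 with 43.1%, and *Adcy5* led in NP replicate 3 with 45.3% and in P replicate 3 with 61.6%. *Adcy3* never exceeded 6.98% of the family. Which cyclase mRNA was the most abundant thus differed between libraries of the same fraction.

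*Pde3a*, the phosphodiesterase whose activity ends the arrest (chr6:141249269-141499351, plus strand), was at 68.4, 25.7 and 34.4 FPKM in NP against 61.0, 20 and 1.07 in P. The P library was lower than the NP library of its number each time, but P replicate 1 was above NP replicates 2 and 3, and the groups overlapped. For numbers 1 and 2 the ratio of P over NP was 0.891 (exact 95% counting interval 0.631 to 1.23) and 0.777 (0.626 to 0.954). For number 3 NP exceeded P by 32.0-fold (15.5 to 79.7), with 1753 reads against 7. Its fitted ratio in limma was -1.53 ± 1.18 (SE; adjusted p = 0.499), 0.50 below the median of all genes, and without P replicate 3 it was -0.16, which was 0.77 above the median of all genes in that fit.

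The table ends *Pde3a* before the end that GENCODE M21 gives, and its values came out as whole reads at an exon length of 4205 bases, so most of the annotated 3′ UTR of 8555 bases was not counted. Its 3′ UTR window at the annotated end therefore lies outside the counted region. Among 19 *Pde* genes, of which all but *Pde12* encode cyclic nucleotide phosphodiesterases, *Pde3a* held 17.5%, 10.6% and 16.9% of the summed FPKM in NP against 28.3%, 22.3% and 0.767% in P, and ranked from 2 to 4. *Pde1b*, a calcium-dependent phosphodiesterase, was first in 5 of the 6 libraries, with 34.0% to 61.5% in NP and 35.7% to 65.7% in P. Its own FPKM was 202, 149 and 69.4 in NP and 118, 32.0 and 92.0 in P, with overlapping groups.

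*Prkaca*, the main catalytic subunit of protein kinase A (chr8:83972978-83996445, plus strand), was at 10.6, 129 and 5.90 FPKM in NP and at 0, 11.5 and 0 in P. NP replicate 2 was far above all others, and P replicate 2 was above NP replicates 1 and 3, so the groups overlapped. The reads were 30, 5364 and 164 in NP and 0, 30 and 0 in P. For number 2, NP was 11.3-fold above P (exact 95% counting interval 7.89 to 16.7). With the limit of 3 reads, which is 7.99 FPKM in P replicate 1 and 0.844 in P replicate 3, *Prkaca* was at least 1.32-fold lower in P for number 1 and at least 6.98-fold lower for number 3, taking the NP values as measured, without their own counting error. The limma ratio was -3.23 ± 1.4 (SE; unadjusted p = 0.0301, adjusted p = 0.274), 2.20 below the median of all genes. Over all alternatives it stayed below 0, from -5.38 to -1.93, and below the median of all genes of the same fit by at least 1.0. Its adjusted p ran from 0.0979 to 0.890, the lowest being with the replicate number as a block, the only alternative in which it passed the threshold.

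*Prkacb*, the second catalytic subunit (chr3:146729579-146812960, minus strand), was low throughout, at 4.74, 0.355 and 0.181 FPKM in NP against 0, 0.804 and 0 in P. NP replicate 1 was the highest of the 6, and the groups overlapped. In P replicate 1, 3 reads would be worth 3.36 FPKM, so *Prkacb* was at least 1.41-fold lower in P for number 1, again with the NP value as measured, whereas in P replicate 3 the limit of 0.355 FPKM lay above the value in NP. For number 2, P over NP was 2.26, from 5 reads against 35, with an exact 95% counting interval of 0.693 to 5.81 that takes in no difference. These reads rest on a length of 5451 bases, well under the annotated one, and could be more if the counted length was longer. In limma the ratio was -0.78 ± 0.84 (SE; adjusted p = 0.612), 0.25 above the median of all genes. With a pseudocount of 0.1 it was -2.03, which was 0.30 below the median of all genes in that fit. After quantile normalization it was -0.0016.

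*Prkar1a*, the type I regulatory subunit (chr11:109649405-109669656, plus strand), was at 42.8, 1.43 and 0.820 FPKM in NP against 12.7, 16.0 and 3.29 in P. It was the only member with a ratio above 0, but NP replicate 1 was the highest library of all, and the groups overlapped. For number 1 the ratio of P over NP was 0.297 (exact 95% counting interval 0.134 to 0.574, 9 reads against 229). For numbers 2 and 3 it was 11.2 (8.28 to 15, 79 reads against 112) and 4.01 (2.28 to 6.85, 22 against 43). Its fitted ratio in limma was 0.79 ± 1.35 (SE; adjusted p = 0.770), 1.82 above the median of all genes, while the plain means ran the other way, 15 ± 24.1 in NP and 10.7 ± 6.61 in P (SD, n = 3). Without NP replicate 1 the ratio was 2.25 and without NP replicate 3 it was -0.046, and it stayed above the median of all genes of the same fit by 0.78 or more in every alternative.

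*Prkar2a*, the type II regulatory subunit that anchoring proteins hold in place (chr9:108692143-108749512, plus strand), was at 3.60, 7.47 and 0.0816 FPKM in NP against 0, 11.3 and 0 in P. P replicate 2 was the highest of the 6 libraries, and the other P libraries were listed at 0. Their limits of 4.53 and 0.479 FPKM lay above the NP values of the same number, so no difference was detectable for numbers 1 and 3. For number 2, P over NP was 1.51 (exact 95% counting interval 1.11 to 2.01, 52 reads against 546). The limma ratio was -0.59 ± 1.23 (SE; adjusted p = 0.817), with plain means of 3.72 ± 3.69 in NP and 3.76 ± 6.51 in P (SD, n = 3). That ratio was 0.049 without NP replicate 2, 0.010 without P replicate 1 or 3, and -1.80 without P replicate 2.

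**Figure D3:**
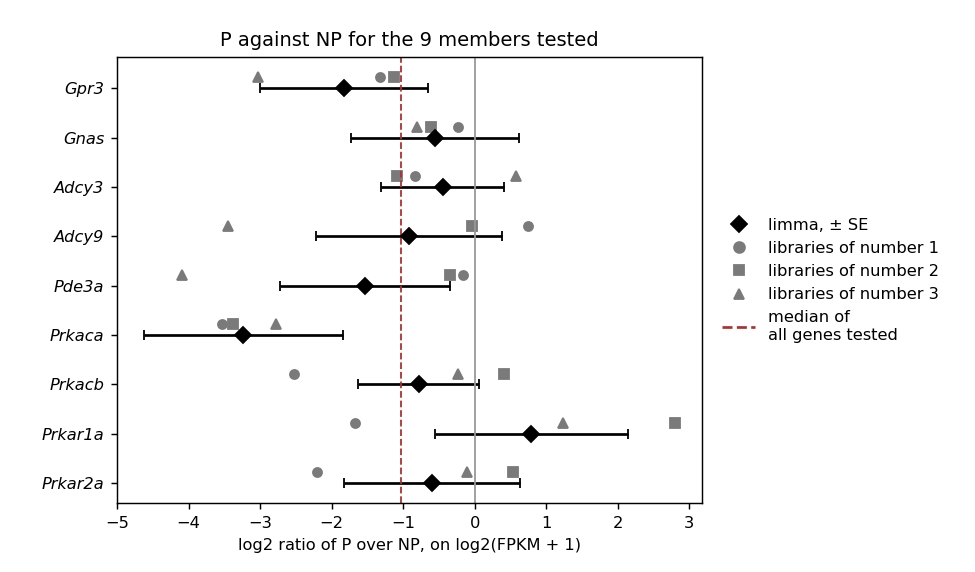
Ratio of P over NP on the log2(FPKM + 1) scale for the 9 members tested, with the limma estimate ± SE (black diamonds), the difference between libraries of the same number (grey symbols) and the median of all genes at -1.03 (dashed line). *Prkaca* lies lowest at -3.23, though for numbers 1 and 3 its P value was listed at 0 and the pseudocount sets where the grey symbol falls, while the grey symbols of *Prkar1a*, *Adcy9* and *Pde3a* spread over more than 3 log2 units.

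The make-up of the kinase subunit mRNAs differed from library to library. Over the 6 protein kinase A subunit genes, *Prkaca* made up 16.0%, 91.2% and 84.2% of the summed FPKM in NP against 0%, 28.8% and 0% in P. *Prkar1a* made up 64.9%, 1.0% and 11.7% in NP and 100%, 40.2% and 100% in P. *Prkar1a* was the subunit with the highest FPKM in all 3 P libraries and in NP replicate 1, and *Prkaca* in NP replicates 2 and 3. The 100% in P replicates 1 and 3 rested on 9 and 22 reads. *Prkar2b*, the other type II regulatory subunit, stayed between 0 and 3.25 FPKM.

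**Figure D4:**
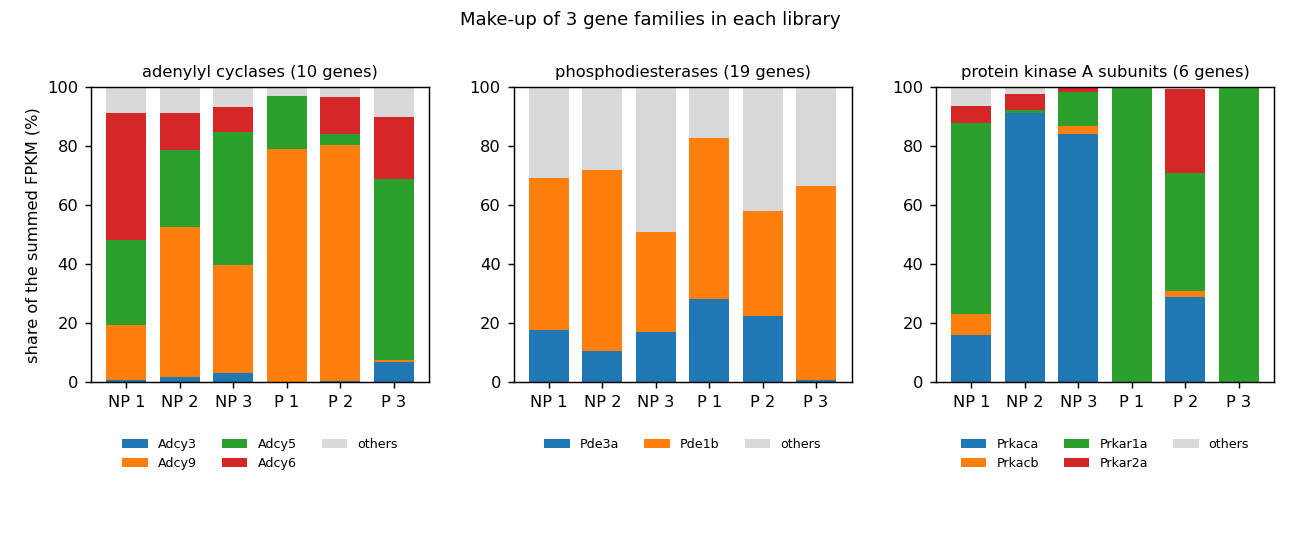
Share (%) of the summed FPKM of 10 adenylyl cyclases, 19 phosphodiesterases and 6 protein kinase A subunits taken by the named genes in each library. *Adcy9* falls from 80.1% in P replicate 2 to 0.466% in P replicate 3, *Pde1b* leads in 5 of 6 libraries, and *Prkar1a* holds 40.2% to 100% in P.

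By median FPKM in NP the members stood in the order *Pde3a* (34.4), *Gpr3* (29.3), *Adcy9* (22.7), *Prkaca* (10.6), *Gnas* (7.23), *Prkar2a* (3.60), *Prkar1a* (1.43), *Adcy3* (0.924), *Prkacb* (0.355) and *Gpr12* (0). Each neighbour in that order overlapped the next, except *Prkacb* and *Gpr12*. The place of *Gnas* is uncertain, since its FPKM divides by 11186 exon bases, while nearly as many reads were listed for *Gm20721* over 1484 bases at 46.3 to 90.8 FPKM in NP. In P the order was *Adcy9* (38.8), *Pde3a* (20), *Prkar1a* (12.7), *Gpr3* (8.97), *Gnas* (5.46) and *Adcy3* (0.281), followed by 4 members with a median of 0. The only gap between neighbours there was between *Gnas*, whose lowest value was 4.39, and *Adcy3*, whose highest was 1.86. Ranges within a fraction were wide, 91.5-fold for *Prkar2a* and 52.2-fold for *Prkar1a* in NP, and 362-fold for *Adcy9* and 56.7-fold for *Pde3a* in P.

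Of 78 further genes of the pathway, taken from 8 lists, 77 were in the table and 51 were tested, and 1 passed the threshold, *Gja4*, which was lower in P, beside 1.82% of all genes tested. *Gja4* encodes connexin 37, the gap junction protein through which the oocyte is coupled to its follicle cells. It was at 2161, 2642 and 2544 FPKM in NP against 569, 500 and 852 in P, with all P below all NP and means of 2449 ± 254 and 640.0 ± 186 (SD, n = 3). In limma the ratio was -1.97 ± 0.49 (SE; adjusted p = 0.0592), 0.94 below the median of all genes. Over the alternatives the adjusted p ran from 0.0291 to 0.70, and the call was lost without any one of NP replicates 1 to 3 (adjusted p = 0.356, 0.372 and 0.165) or without P replicate 1 (0.118). It was also lost after median-of-ratios rescaling (ratio -0.97), quantile normalization (-1.1) and rescaling to a common FPKM sum (-1.03), and with no trend or no filter. Of the 51 genes, 41 had a ratio below 0 and 10 above, the median was -1.04 beside -1.03 for all genes, and 8 had all P below all NP beside 23.2% of all genes. None of the 51 passed in the other direction.

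Apart from *Gja4*, the genes around the receptor, the cyclases and the phosphodiesterases showed no call. Of the G protein subunits and their partners 11 of 14 were tested, with a median ratio of -0.78, led by the inhibitory subunit *Gnai2* (51.2, 79.8 and 146 FPKM in NP against 30.8, 37.0 and 58.1 in P) and by *Rgs2*, a regulator of G protein signalling (92.4, 82.5 and 33.1, then 35.3, 59.7 and 22.8). Of the other adenylyl cyclases and their partner *Cap1* 6 of 9 were tested, with a median of -1.53, and the values of *Adcy5* (34.5, 23.7 and 14.0, then 8.71, 2.0 and 16.4) and *Adcy6* (51.7, 11.3 and 2.58, then 0, 7.13 and 5.58) overlapped between fractions. Of the other phosphodiesterases 12 of 18 were tested, with a median of -0.89, and *Pde9a*, which is specific for cyclic GMP, was at 7.70, 1.56 and 97.5 FPKM in NP against 0, 1.55 and 5.24 in P. In the list of cyclic GMP supply 2 of 8 were tested, *Gja4* and *Impdh2*, an enzyme of guanine nucleotide synthesis at 1.57, 4.79 and 0 FPKM in NP against 0 throughout P, and 4 of the 8 were at 0 in every library.

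Below the kinase, the lists again held no call. Of the other kinase subunits and inhibitors 3 of 5 were tested, with a median of -0.85, and the inhibitor *Pkig* was at 15.6, 4.02 and 11.4 FPKM in NP against 1.53, 9.0 and 0.485 in P. Of the A-kinase anchoring proteins, which place the kinase in the cell, 8 of 13 were tested, with a median of -1.14. *Akap1*, an anchor at mitochondria, was at 155, 95.6 and 123 FPKM in NP against 136, 63.9 and 32.1 in P, and *Akap10* at 10.6, 66.7 and 3.65, then 0.946, 59.9 and 0.70. The other effectors of cyclic AMP had the lowest median, -2.02 over 5 of 7 tested, with *Crebbp*, a coactivator, at 34.9, 67.3 and 33.2 FPKM in NP against 0.813, 24.9 and 8.25 in P (limma ratio -2.53, adjusted p = 0.290), and the transcription factor *Creb1* at 9.02, 22.7 and 20.2, then 11.6, 0.520 and 2.91. All 4 genes listed at the step between the kinase and CDK1 were tested, with a median of -0.78. *Wee2*, the oocyte kinase that inhibits CDK1, was at 357, 390 and 457 FPKM in NP against 159, 168 and 143 in P, with no overlap but an adjusted p of 0.322 in limma, and *Cdk1* itself was at 22.3, 84.4 and 42.7, then 216, 10.7 and 21.

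**Figure D5:**
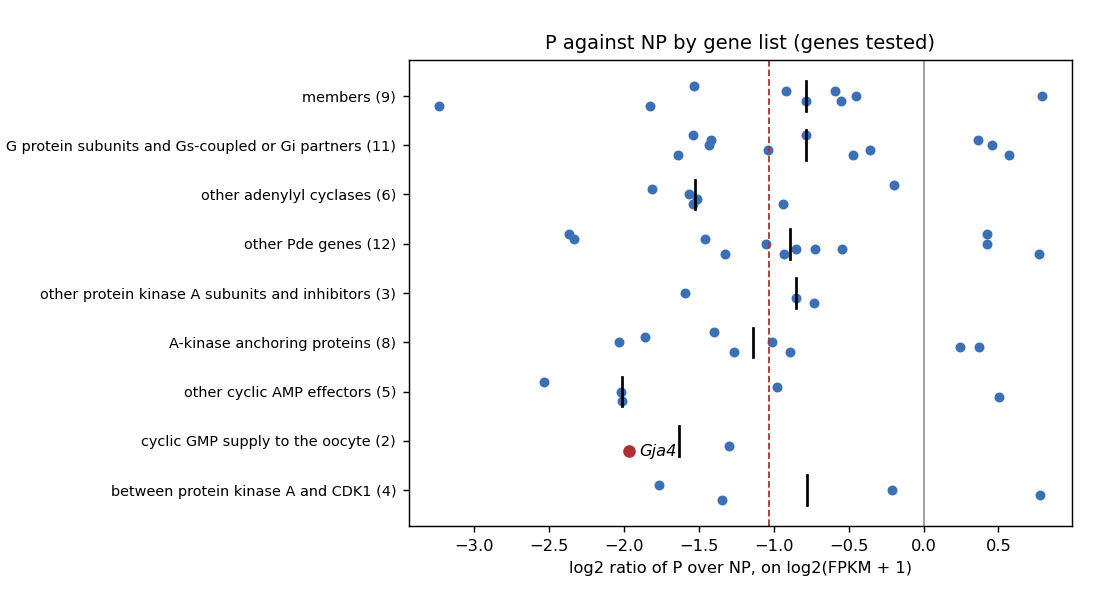
Ratio of P over NP on the log2(FPKM + 1) scale for each gene tested (points) in the members and in 8 further lists of the pathway, with the median of each list (black bar) and of all genes (dashed line at -1.03). *Gja4*, in red at -1.97, is the only gene past the threshold.

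The 5 members above 0 in all 6 libraries were set beside all other genes tested by the Pearson correlation of log2(FPKM + 1) over the 6 libraries, given as a description since 10569 genes were compared on 6 points that share depth and fraction. *Gpr3* was most like *0610009D07Rik* (r = 0.993) and *Gcnt2* (0.991), and 17 genes exceeded 0.95. *Gnas* was most like *Gm20721* (0.997), the gene on its opposite strand, and *E330021D16Rik* (0.990). *Adcy9* was most like *Gm11574* (0.993) and *Sf3b2* (0.992), with 58 genes above 0.95, and *Pde3a* most like *Drosha* (0.997) and *Rptor* (0.989), with 59. *Drosha* was at 35.7, 16.8 and 22.2 FPKM in NP against 38.1, 14.0 and 0.326 in P, and had its low value in P replicate 3 as *Pde3a* did. *Prkar1a* was most like *Klhl9* (0.982), its only gene above 0.95, and then *Zfp26* (0.9499).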

How the data were processed

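Oocytes of AF mice were fractionated into 3 NP and 3 P libraries. After trimming with Trim Galore 0.4.1 and alignment to GRCm38 with Hisat2 2.0.5, the authors deposited FPKM per gene from Seqmonk 1.40.0. For annotation release and strand, the settings were not given in the sources used here. The table has 25965 lines with 58 duplicated symbols, of which the one with the highest mean was kept, and 8 value columns, of which the 2 fraction means were not used. FPKM divides reads by exon length and mapped reads, so fewer reads outside genes raise all values of a library.

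Depth was recovered from low FPKM values and GENCODE M21 exon lengths of 13241 genes with matching coordinates, and 84.0% to 89.5% of these values per library were whole within 0.02 reads. What 1 step counts (a read or a part of one) is not settled. Exon lengths of 5 members were as annotated, and for 4 others a length giving whole reads was found. Exon overlaps and BLAST 2.17.0 (95% identity over 100 bases) served to find shared sequence, and besides the overlaps named, *Pde3a* shares 149 bases at 95.3% identity with *Pole* and 741 exon bases with *Gm28523*.

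The test of P against NP used limma 3.58.1 (R 4.3.3), two-sided, on log2(FPKM + 1) with a trend. It covered genes whose mean exceeded 1 FPKM in at least 1 fraction, with Benjamini-Hochberg adjustment over all of them and a threshold of 0.1. Ratios on this scale understate the change of low genes. The script was tested on simulated data with 200 genes changed by 2 log2 units. It called 200 of them at a noise SD of 0.3, with 19 unchanged genes. At an SD of 1.22, the median residual SD of these libraries, it called 17, with 2 unchanged genes. Most changes of this size were thus missed at that noise. Ratios between libraries of one number have exact binomial 95% counting intervals, and a library at 0 was set at 3 reads. No source says in words that equal numbers mean one gradient. Members and lists were chosen with earlier results of these data known. Named genes were all members, list genes past the threshold, the 2 most abundant of each list and, for members above 0 in all libraries, the 2 most correlated genes. *Gpr6*, granulosa markers at 0, overlapping genes and *Prkar2b* were added after values were seen. Alternatives were other pseudocounts, filters, scalings and thresholds, no trend, a replicate block and each library left out. Python 3.11.15 was used for the rest.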

Additional observations from a re-analysis of the deposited data

How the results depend on the processing

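In every alternative but the replicate block, 0 members passed the threshold in limma, and with the replicate block 1 member (*Prkaca*, adjusted p = 0.0979) passed. *Adcy3*, *Prkacb* and *Prkar2a* fell below the filter in 3, 2 and 1 of the alternatives. Same-numbered NP and P libraries deviated together weakly (r = 0.063, 0.099 and 0.116, against -0.089 to 0.021 for other numbers). Each library correlated best with its own number. The main fit still used no block, since no source says in words that equal numbers mark one sample. The number of genes past the threshold was 192. It was 65 at a threshold of 0.05, 69 with a pseudocount of 0.1, 1 with no filter, 3 after median-of-ratios rescaling, 4 after quantile normalization, 7 at a common FPKM sum, 15 with no trend and 668 with the replicate block, and 1 to 331 with a library left out (4, 12 and 1 without NP replicates 1, 2 and 3, and 331 without P replicate 3). Of the other pathway genes, 1 passed, and 0 did at a threshold of 0.05, with no filter, after each of the 3 scalings and with no trend, and 0 to 1 with a library left out. Ratios were followed for the 9 members and *Gja4*, the only called gene among them, which kept its sign. Signs changed after median-of-ratios rescaling for *Gnas* (0.30) and *Adcy3* (0.025), after quantile normalization for *Gnas* (0.83), *Adcy3* (0.71), *Adcy9* (0.41) and *Prkar2a* (0.57), and at a common sum for *Gnas* (0.26). With a library left out, ratios ran from -1.80 to 0.049 for *Prkar2a* (0.049 without NP replicate 2 and 0.010 without P replicate 1 or 3), from -0.046 to 2.25 for *Prkar1a* and from -1.84 to 0.83 for *Adcy9*. For the others they ran from -2.70 to -1.04 (*Gpr3*), -0.70 to -0.30 (*Gnas*), -0.89 to -0.14 (*Adcy3*), -2.61 to -0.16 (*Pde3a*), -4.45 to -1.95 (*Prkaca*) and -1.20 to -0.64 (*Prkacb*). A pseudocount of 0.1 gave -1.49 for *Adcy3*, -2.03 for *Prkacb*, -1.83 for *Prkar2a* and -5.38 for *Prkaca*, which have values at 0. The cause of the other changes was not tested. Over the 9 members and *Gja4*, 122 single results kept direction and side of the threshold, 9 lost a call, 1 gained one and 12 changed sign. Depth limits P replicate 1 most, where 4 members that were above 0 in NP were listed at 0.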
